A study of Rattus norvegicus with 16 samples.

Results

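The proteasome is the barrel-shaped protease that degrades ubiquitin-tagged proteins, and its genes were followed here in rat liver on 4 diets. The members were all genes whose symbol in the array platform's probe table starts with Psma, Psmb, Psmc, Psmd, Psme, Psmf or Psmg. The table names 37 such symbols among 14839 genes, and 36 of them had at least 1 probe set bright enough to enter the test of 12156 genes. The member left out was Psmb11, the thymus subunit in mouse, whose 7 probe sets averaged at most 5.37 on the log2 scale against a threshold of 6.01. The rule reads symbols, and brightness then set which members were tested. Of the 386 probe sets of the members 339 were kept, and the ones nearest the threshold were 1 of Psmc3ip just inside it and 1 each of Psmd6 and Psmb5 just outside it. The immune subunit Psmb10, the inhibitor Psmf1 and the assembly chaperones Psmg1 to Psmg4 carry no such symbol in that table, so they are not analysed here as members.

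The livers came from female Sprague-Dawley rats at 5 weeks of age, and biotin-labelled RNA was hybridised to exon arrays, 4 arrays for each of 4 groups. Every group received a Teklad mash (4%) diet. The Control group received it without a compound, for a period that its labels do not give. The other groups received UAB30 at 200 ppm, MeUAB30 at 200 ppm or Targretin at 150 ppm, each for 7 days. Targretin is bexarotene, a retinoid X receptor agonist in clinical use, UAB30 is another retinoid of that class, and MeUAB30 carries an added methyl group on the UAB30 skeleton. The labels number the arrays from 1 to 4 in each group but do not say that they came from separate animals, so the p-values measure the spread between arrays, which may be in part technical. Values are log2(intensity + 1) per gene, and called, rose and fell refer to an adjusted p under 0.05 over all 12156 genes (limma with Benjamini-Hochberg adjustment). In bulk liver, fewer cells of a type and less RNA per cell cannot be told apart.

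As background, the 20S core is a stack of outer rings of alpha subunits, which gate the channel, and inner rings of beta subunits, of which Psmb5, Psmb6 and Psmb7 hold the protease sites. The 19S particle caps the core, binds ubiquitin chains, removes them and unfolds the substrate with a ring of ATPases. Under interferon-gamma, cells exchange the catalytic subunits for the immune forms Psmb8 (in place of Psmb5), Psmb9 (in place of Psmb6) and Psmb10 (in place of Psmb7), and make more of the PA28 cap of Psme1 and Psme2, which changes the peptides offered to MHC class I. In mammalian cells the transcription factor Nfe2l1 raises proteasome genes together when proteasome activity is short.

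Some arrays stood apart before any comparison. The arrays UAB30 3, MeUAB30 1, Targretin 2 and Control 3 had the narrowest intensity range of their groups, with 6.06 to 6.15 log2 units between the array's median and its 99th percentile, and are called the 4 narrow arrays here. The mean over 32 proteasome genes (without the immune subunits, Psmc3ip and Psme1-ps1) was the lowest of its group on each of these 4 arrays, at 8.78, 9.05, 8.63 and 8.47 in that order. The range of UAB30 2 was as narrow, at 6.15, and its mean was 8.91, not the lowest of its group, and Control 4 followed with a range of 6.16. Control 2 was the highest Control array, at 9.02, with all 32 of these genes above their Control mean. Counts are therefore given with and without the 4 narrow arrays, and also without these and UAB30 2, a setting chosen after seeing the data. Hepatocyte markers (10 of 13 listed genes measured) averaged 13.18 to 13.28 on the Control arrays and 13.06 to 13.09 on the MeUAB30 arrays, which lay below all of them. They averaged 13.18 to 13.26 with UAB30 and 13.03 to 13.24 with Targretin, where Targretin 2 was the lowest of all arrays. With Targretin 0 of the 10 were called, and 4 had an unadjusted p under 0.05, against 10.9% of all genes. With MeUAB30 7 of the 10 were lower in value, 5 of them wholly below Control, where 2.78% of all genes were. With that diet 2 of the 10 fell, beside 2.01% of all genes. They were the urea cycle enzyme Cps1 (log2 difference -0.57, adjusted p = 0.0014) and the lipoprotein gene Apob (-0.34, adjusted p = 0.047). The part of this shift in the MeUAB30 values of the members was not tested.

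With MeUAB30 the 20S core rose. Of the 36 members 15 rose with MeUAB30 against Control and 0 fell, where 9.89% of all genes were called, 7.88% rising and 2.01% falling. The median difference of the members was 0.55 on the log2 scale, beside 0.06 for all genes tested, and 33 of 36 differences were positive. The 4 arrays lay wholly above the 4 Control arrays for 19 members, against 11.7% of all genes. The called members were 10 of the 13 measured 20S ring genes, both measured immune subunits, both PA28 genes and the assembly chaperone Psmd9. None of the 14 measured 19S genes under the member symbols was called. Of these, 7 were among the 27 members with an unadjusted p under 0.05, against 23.2% of all genes. With quantile normalization the 19S genes Psmd3 (0.41, adjusted p = 0.049) and Psmd4 (0.46, adjusted p = 0.043) were called. The 19S receptor Adrm1, which has another symbol, was called and is given below. Without the 4 narrow arrays 24 members rose, among them 12 of 13 ring genes and 5 of 14 genes of the 19S particle, and 20.1% of all genes were then called. The 24 include Psmc3ip, which only shares the prefix. Without UAB30 2 as well 26 rose, 12 of them ring genes and 7 in the 19S particle, and 19.6% of all genes were called. Without MeUAB30 4 the count of called members was 8, and without Control 4 it was also 8.

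**Figure D1:**
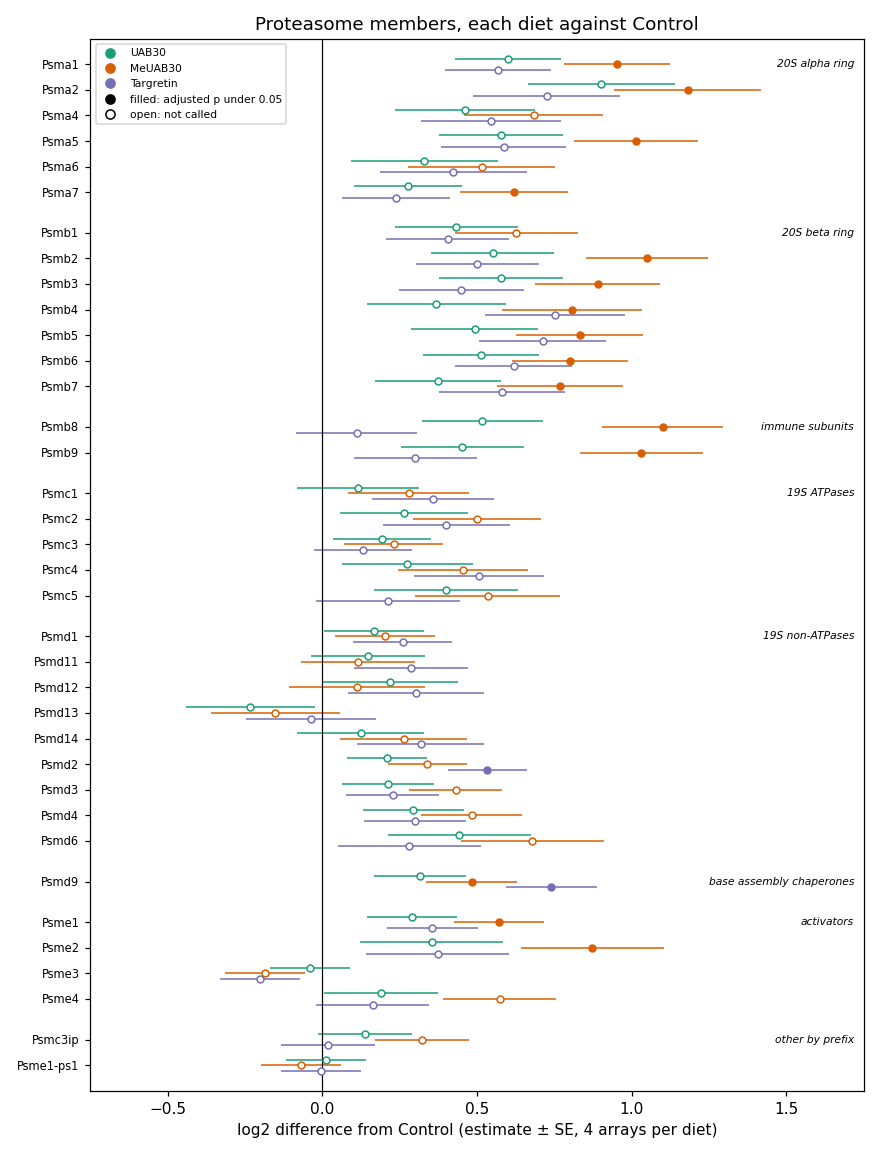
Log2 difference of each of the 36 proteasome members from Control (x axis, estimate ± SE, 4 arrays per diet) with UAB30, MeUAB30 and Targretin, grouped by role (y axis). Filled points had an adjusted p under 0.05: 15 members with MeUAB30, mostly of the 20S rings, 2 with Targretin (Psmd2 and Psmd9) and 0 with UAB30.

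Among the alpha ring genes, Psma2 had the highest difference of any member with MeUAB30. Its log2 values were 8.72, 9.56, 8.79 and 8.40 on Control arrays 1 to 4 and 10.01, 9.86, 10.19 and 10.14 on the MeUAB30 arrays. They were 10.40, 9.60, 9.27 and 9.81 with UAB30 and 9.65, 9.23, 9.62 and 9.88 with Targretin. All MeUAB30 arrays were above all Control arrays, while Control 2 lay among the UAB30 and Targretin values. Psma2 rose 2.27-fold with MeUAB30 (log2 difference 1.18 ± 0.24, SE, adjusted p = 0.0044), and its 7 kept probe sets were all higher, by 0.80 to 1.49.

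Psma1 and Psma5, which sit in the same ring, rose as well. Psma1 read 9.29, 9.84, 9.26 and 9.14 on the Control arrays and 10.13, 10.42, 10.27 and 10.53 on the MeUAB30 arrays, a rise of 1.94-fold (log2 difference 0.95 ± 0.17, SE, adjusted p = 0.0021). Psma5 read 8.49, 9.15, 8.43 and 8.42 on the Control arrays and 9.49, 9.52, 9.59 and 9.95 on the MeUAB30 arrays, a rise of 2.02-fold (1.02 ± 0.20, SE, adjusted p = 0.0040). In both genes Control 2 was the high Control array and still lay below every MeUAB30 array. Psma7 rose by less (log2 difference 0.62, adjusted p = 0.031), a call that was lost on leaving out any of 5 single arrays (MeUAB30 2, MeUAB30 3, MeUAB30 4, Control 1 or Control 4). Psma4 (log2 difference 0.68, adjusted p = 0.066) and Psma6 (0.52, adjusted p = 0.20) were not called.

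In the beta ring, 6 of 7 measured genes rose with MeUAB30. Psmb2, a subunit without protease activity, read 8.72, 9.73, 9.14 and 8.83 on the Control arrays and 9.90, 10.21, 10.21 and 10.30 on the MeUAB30 arrays. The groups did not overlap, and the rise was 2.07-fold (log2 difference 1.05 ± 0.20, SE, adjusted p = 0.0029). Psmb3, also without protease activity, read 8.26, 8.63, 8.29 and 8.15 on the Control arrays and 9.13, 9.27, 9.20 and 9.30 on the MeUAB30 arrays. Its MeUAB30 values were close together (SD 0.08) and wholly above Control, with a rise of 1.86-fold (0.89 ± 0.20, SE, adjusted p = 0.0096). Psmb4 rose too (0.81, adjusted p = 0.030), but the call was lost on leaving out any of 6 single arrays (MeUAB30 1, MeUAB30 3, MeUAB30 4, Control 1, Control 3 or Control 4), and Psmb1 was not called (0.63, adjusted p = 0.055). RefSeq names 38 pseudogenes of 15 of the 36 members, 7 of them of Psmb3, and probe sets could read such copies, so the values of these members are uncertain in that respect.

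The 3 protease subunits of the ordinary core were all called. Psmb5, the chymotrypsin-like subunit, read 9.14, 9.32, 8.83 and 8.96 on the Control arrays and 9.62, 9.87, 9.98 and 10.11 on the MeUAB30 arrays, and rose 1.78-fold (log2 difference 0.83 ± 0.21, SE, adjusted p = 0.015). Psmb6, the caspase-like subunit, read 7.66, 7.95, 7.34 and 7.39 on the Control arrays and 8.13, 8.33, 8.49 and 8.59 on the MeUAB30 arrays, and rose 1.74-fold (0.80 ± 0.19, SE, adjusted p = 0.012). Psmb7, the trypsin-like subunit, read 8.95, 9.24, 8.39 and 8.60 on the Control arrays and 9.53, 9.62, 9.44 and 9.65 on the MeUAB30 arrays, and rose 1.70-fold (0.77 ± 0.20, SE, adjusted p = 0.023). None of the 3 overlapped between the groups. The Psmb6 call stood on leaving out each of the 8 arrays in turn. That of Psmb5 was lost without MeUAB30 4 or Control 4, and that of Psmb7 without MeUAB30 2, MeUAB30 4, Control 3 or Control 4. One Psmb7 probe set stood far above its others, at 2.28 with MeUAB30 and 1.88 with Targretin, and all 9 were higher with either diet.

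The promoters of Psmb2 and Psmb3 are shown because both genes rose with MeUAB30 on leaving out any 1 array and because Psmb2 holds the most antioxidant response element cores of the 31 members with a promoter in RefSeq (GRCr8). Each window runs from 250 bases before to 50 bases after the annotated start. Capitals mark matches on either strand to the core of the antioxidant response element (TGANNNNGC), the kind of site that Nfe2l1 and Nfe2l2 bind, and to the interferon-stimulated response element (GAAANNGAAA). Psmb2 lies at chr5:144254808-144255107 on the plus strand and Psmb3 at chr10:83193537-83193836 on the plus strand.
Psmb2: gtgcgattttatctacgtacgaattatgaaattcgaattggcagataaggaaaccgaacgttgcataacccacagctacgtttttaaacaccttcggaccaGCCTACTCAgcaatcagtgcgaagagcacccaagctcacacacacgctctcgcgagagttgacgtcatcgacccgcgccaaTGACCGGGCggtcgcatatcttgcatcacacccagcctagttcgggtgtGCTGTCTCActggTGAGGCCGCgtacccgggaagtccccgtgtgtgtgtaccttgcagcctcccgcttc
Psmb3: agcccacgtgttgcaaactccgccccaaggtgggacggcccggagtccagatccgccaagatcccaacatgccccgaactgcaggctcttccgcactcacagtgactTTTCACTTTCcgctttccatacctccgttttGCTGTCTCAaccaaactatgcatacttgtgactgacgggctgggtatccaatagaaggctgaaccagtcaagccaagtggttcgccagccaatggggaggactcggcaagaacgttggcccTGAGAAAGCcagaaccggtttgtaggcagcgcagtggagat
Psmb2 held 4 antioxidant cores, which begin at positions -149, -68, -19 and -6 counted from the annotated start at 0. The match at -68 overlaps a CCAAT box at its first base and a GC box (GGGCGG) near its end. Psmb3 held 2, at -112 and 9, and 1 interferon element at -143. Of the 14 members called with MeUAB30 that had a promoter, 9 held the antioxidant core. The called genes Psma1, Psma2, Psmb8, Psme1 and Psme2 held 0. Of the 11 promoters of 19S genes 5 held it, and Psmd1, which was not called, held 3. Over all 31 promoters the antioxidant core was found in 54.8% against 40.5% of all 33469 promoters, the CCAAT box in 54.8% against 37.5%, and the GC box in 71.0% against 33.1%. A nuclear receptor half-site (AGGTCA) was found in 16.1% against 16.2%. The members had passed the brightness filter, while all promoters were counted whether or not their genes had, so the sets are unlike. These matches are letters in a window and do not show binding.

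The 19S genes under the member symbols differed from Control by less than the ring genes did, in value, although the difference between these sets was not tested. Adrm1 and Sem1, 19S genes with other symbols, are not in this set and are given below. The 13 ring genes together averaged 0.83 ± 0.16 (SD, n = 4) above the Control mean with MeUAB30, and the 14 genes of the 19S particle averaged 0.32 ± 0.21. On the Control arrays the same averages ran from -0.19 to 0.43 for the rings and from -0.29 to 0.26 for the 19S genes. The 4 MeUAB30 arrays were therefore all above Control for the rings, while for the 19S genes MeUAB30 1 lay inside the Control range at 0.06. Single 19S genes ranged from -0.15 for Psmd13, a lid subunit with only 2 kept probe sets, to 0.68 for Psmd6, another lid subunit. The smallest adjusted p among them was 0.073, of the ubiquitin receptor Psmd4 (log2 difference 0.48). The 5 ATPase genes, which form the unfolding ring, had differences from 0.23 to 0.54 and the 9 other 19S genes a median of 0.26.

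**Figure D2:**
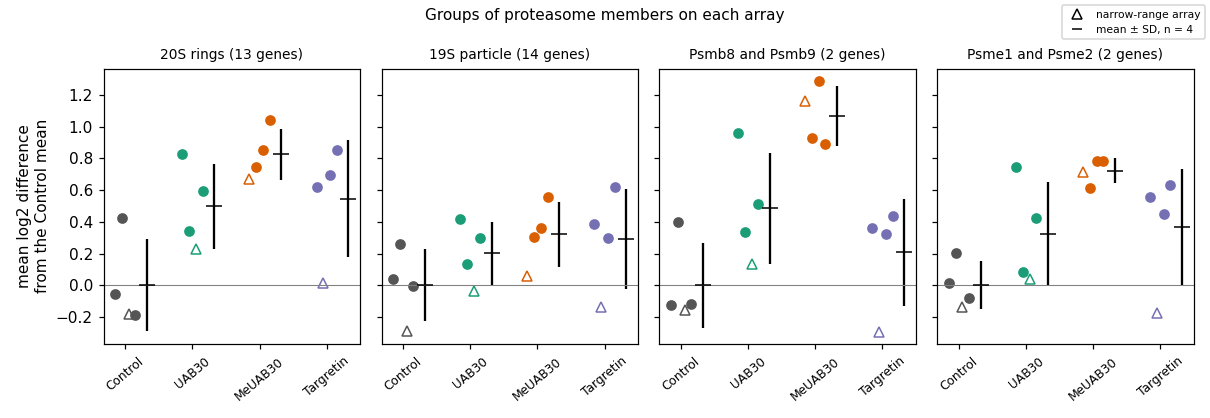
Mean log2 difference from the Control mean (y axis) on each array for the 20S ring genes, the 19S genes, the immune subunits Psmb8 and Psmb9, and Psme1 with Psme2, by diet (x axis). Points are arrays, open triangles the 4 narrow-range arrays, bars the mean ± SD of 4 arrays. MeUAB30 arrays lie above all Control arrays for the rings, the immune subunits and Psme1 with Psme2, and the narrow-range array of Targretin lies lowest in its group in every panel.

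The immune subunits were read apart. Psmb8, which replaces Psmb5, read 8.63, 9.21, 8.57 and 8.69 on the Control arrays, 9.73, 9.10, 9.07 and 9.27 with UAB30, and 9.93, 9.79, 10.15 and 9.63 with MeUAB30. With Targretin it read 8.99, 8.36, 9.08 and 9.12. The MeUAB30 arrays stood above all Control arrays, and the Targretin arrays lay below the highest Control array, with Targretin 2 below every Control array. Psmb8 rose 2.14-fold with MeUAB30 (log2 difference 1.10 ± 0.20, SE, adjusted p = 0.0019), the smallest adjusted p of any member. Its difference from Control was 0.52 with UAB30 (adjusted p = 0.51) and 0.11 with Targretin (adjusted p = 0.94), and neither was called.

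Psmb9, which replaces Psmb6, was also called with MeUAB30. It read 7.75, 8.22, 7.74 and 7.70 on the Control arrays, 8.81, 8.20, 7.83 and 8.38 with UAB30, and 9.01, 8.69, 9.05 and 8.77 with MeUAB30. With Targretin it read 8.36, 7.68, 8.19 and 8.38. All MeUAB30 arrays were above all Control arrays, and UAB30 1 lay within their range. Psmb9 rose 2.04-fold with MeUAB30 (log2 difference 1.03 ± 0.20, SE, adjusted p = 0.0033), and differed by 0.45 with UAB30 (adjusted p = 0.59) and by 0.30 with Targretin (adjusted p = 0.69), neither of them called. The calls of both immune subunits with MeUAB30 stood on leaving out each of the 8 arrays in turn. All 8 kept probe sets of Psmb8 and all 7 of Psmb9 were higher with MeUAB30, while with Targretin 6 of 8 and 6 of 7 were. With both ordinary and immune forms higher with MeUAB30, the differences of the replaced subunits were 0.83 for Psmb5 and 0.80 for Psmb6. With Targretin they were 0.71 for Psmb5 (adjusted p = 0.095) and 0.62 for Psmb6 (adjusted p = 0.12), not called. Whether an immune subunit changed by more or less than the one it replaces was not tested.

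Of the activators, the PA28 genes Psme1 and Psme2 rose with MeUAB30. Psme1 read 8.81, 8.80, 8.58 and 8.62 on the Control arrays and 9.17, 9.34, 9.20 and 9.38 on the MeUAB30 arrays, a rise of 1.49-fold (log2 difference 0.57 ± 0.15, SE, adjusted p = 0.019). Psme2 read 9.10, 9.48, 9.02 and 9.09 on the Control arrays and 10.14, 9.76, 10.23 and 10.05 on the MeUAB30 arrays, a rise of 1.83-fold (0.87 ± 0.23, SE, adjusted p = 0.023). Neither gene overlapped between these groups. The Psme1 call was lost without MeUAB30 2, MeUAB30 4 or Control 4, and the Psme2 call without MeUAB30 1, MeUAB30 3, MeUAB30 4, Control 1 or Control 4. The differences with UAB30 were 0.29 and 0.35, and with Targretin 0.36 and 0.37, and none of these was called.

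The other activators were not called with any diet in the fit without covariates. Psme3, the nuclear PA28-gamma, which interferon does not raise, was the lowest member with MeUAB30, at a log2 difference of -0.18 (adjusted p = 0.45). It was also the lowest with Targretin, at -0.20 (adjusted p = 0.68), where all 12 of its kept probe sets were lower. With each array's intensity range as a covariate Psme3 was called lower with MeUAB30 (-0.29, adjusted p = 0.020) and with Targretin (-0.28, adjusted p = 0.041). Psme4, the nuclear cap PA200, differed by 0.57 with MeUAB30 (adjusted p = 0.057). It was called higher with MeUAB30 with that covariate (0.39, adjusted p = 0.026) and without the 4 narrow arrays (0.54, adjusted p = 0.034). With quantile normalization Psme4 was called as well (0.54, adjusted p = 0.042). The symbol Psme1-ps1, a pseudogene by its name, differed by -0.07 with MeUAB30. Psmc3ip, a meiotic recombination factor that only shares the prefix and is near the brightness threshold, differed by 0.32 (adjusted p = 0.21). Psmc3ip was called higher with MeUAB30 without the 4 narrow arrays (0.44, adjusted p = 0.031) and with the covariate (0.40, adjusted p = 0.049).

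**Figure D3:**
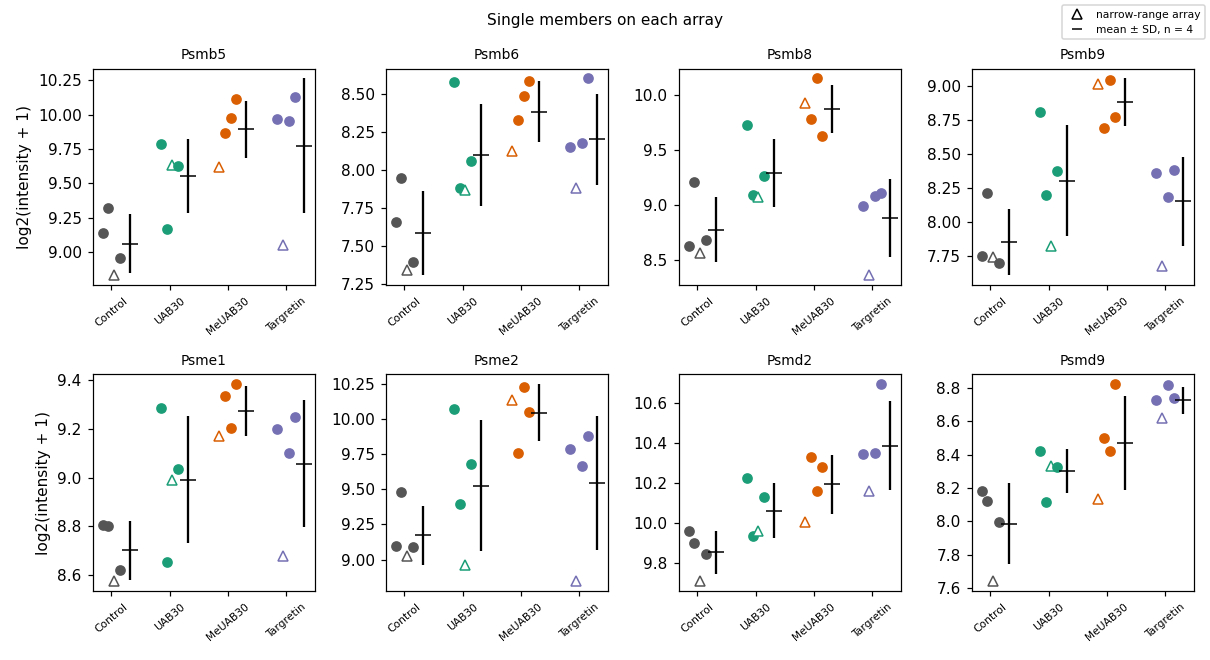
Log2(intensity + 1) on each array (y axis) by diet (x axis) for Psmb5, Psmb6, Psmb8, Psmb9, Psme1, Psme2, Psmd2 and Psmd9. Points are arrays, open triangles narrow-range arrays, bars the mean ± SD of 4 arrays. Psmb8 has a MeUAB30 mean of 9.88 beside 8.78 for Control, and Psmd9 has a Targretin mean of 8.73 beside 7.99 for Control.

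The promoters of Psmb8 and Psme2 are shown because they hold the interferon element and belong to genes that interferon-gamma is known to raise. Psmb8 lies in the major histocompatibility complex beside Psmb9 and Tap1. Its window is chr20:4656982-4657281 on the minus strand, and that of Psme2 is chr15:33052702-33053001 on the minus strand. Both are from RefSeq (GRCr8), written along the gene, and capitals mark GAAANNGAAA on either strand.
Psmb8: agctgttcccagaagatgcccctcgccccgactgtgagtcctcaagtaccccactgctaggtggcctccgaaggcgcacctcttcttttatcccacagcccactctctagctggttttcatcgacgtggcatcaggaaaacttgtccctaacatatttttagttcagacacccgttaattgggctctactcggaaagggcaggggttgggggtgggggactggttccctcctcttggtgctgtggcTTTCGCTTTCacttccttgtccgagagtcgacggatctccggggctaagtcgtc
Psme2: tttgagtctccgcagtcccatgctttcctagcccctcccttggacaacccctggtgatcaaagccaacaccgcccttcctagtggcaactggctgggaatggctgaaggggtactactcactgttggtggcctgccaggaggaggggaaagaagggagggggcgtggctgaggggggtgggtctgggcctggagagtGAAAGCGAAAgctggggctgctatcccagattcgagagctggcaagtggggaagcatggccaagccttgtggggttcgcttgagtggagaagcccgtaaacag
In Psmb8 the element begins at position -4 and in Psme2 at -53. The element was found in 4 of the 31 member promoters (Psma4, Psmb3, Psmb8 and Psme2), which is 12.9%, against 3.92% of all promoters, a set not filtered by brightness. The windows of Psmb9 and of Psme1, the other PA28 gene, held none with these letters.

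Genes of antigen processing and interferon response were set beside the immune subunits. Of 36 listed genes 32 were measured, and 4 rose with MeUAB30 and 0 fell, a share of 12.5% beside the 9.89% of all genes called. At an unadjusted p under 0.05 there were 9 of 32, beside 23.2% of all genes. The called genes were the antiviral gene Oasl (log2 difference 1.19, adjusted p = 0.0041), the ubiquitin-like modifier Isg15 (1.43, adjusted p = 0.011), and the MHC class I genes RT1-CE5 (0.99, adjusted p = 0.0093) and RT1-CE1 (0.62, adjusted p = 0.021). Isg15 and RT1-CE1 rest on 1 kept probe set each. The peptide transporter Tap1 (0.44, adjusted p = 0.18) and the class I light chain B2m (0.34, adjusted p = 0.068) were not called. With UAB30 and with Targretin 0 of these 32 genes were called, with 3 and 2 at an unadjusted p under 0.05, beside 7.83% and 10.9% of all genes. The median of the list was 0.10 with MeUAB30, 0.12 with UAB30 and -0.04 with Targretin. Beside these, the medians of all genes tested were 0.06, 0.05 and -0.01. In value 21 of the 32 were higher and 11 lower with MeUAB30, 26 higher and 6 lower with UAB30, and 15 higher and 17 lower with Targretin.

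Markers of other liver cells were read beside the immune subunits as well. Of 14 Kupffer cell and macrophage markers 12 were measured, and 0 were called with any diet, though with MeUAB30 8 had an unadjusted p under 0.05, beside 23.2% of all genes. With MeUAB30 10 of 12 were above Control, with a median of 0.57 and differences from -0.30 to 0.92. With UAB30 all 12 were above Control with a median of 0.44, and with Targretin 8 of 12 with a median of 0.08. Their mean level per array ran from 7.89 to 8.83 with Control, 8.45 to 9.13 with UAB30, 8.58 to 8.87 with MeUAB30 and 7.80 to 8.86 with Targretin. Of 15 T and NK cell markers 9 were measured, and the chemokine Ccl5 was called with MeUAB30 (log2 difference 0.81, adjusted p = 0.0093), a share of 11.1% beside 9.89% of all genes, with a median of 0.01 over the 9. The 4 measured neutrophil markers of 6 listed were not called with MeUAB30, with a median of 0.23 and the highest for S100a9 (1.19, adjusted p = 0.095, on 1 kept probe set). Their mean level per array ran from 6.12 to 6.76 with Control and from 6.75 to 6.92 with MeUAB30. It ran from 6.30 to 6.91 with UAB30 and from 6.35 to 6.92 with Targretin, with medians of 0.18 and 0.14 from Control. Of 6 measured endothelial markers the receptor Tie1 was called with MeUAB30 (0.48, adjusted p = 0.038), with a median of -0.04 over the 6. That is 16.7% of them, beside 9.89% of all genes. With Targretin, 1 of 5 measured erythroid markers fell, beside 0.666% of all genes. It was the beta-globin gene Hbb (-0.98, adjusted p = 0.030), and the median was -0.55. At an unadjusted p under 0.05 there were 3 of the 5, beside 10.9% of all genes. Of 6 measured stellate cell markers 1, the pericyte gene Rgs5, rose with Targretin (0.67, adjusted p = 0.047), beside 1.51% of all genes. The median of the 6 was -0.34, and 3 had an unadjusted p under 0.05. No B cell, dendritic cell or cholangiocyte marker was called with any diet. The defining T cell genes Cd3d, Cd3e and Cd3g and the Kupffer cell genes Cd163 and Timd4 were not among the genes tested. The part of these cells in the values of the members was not tested.

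With Targretin 2 of 36 members rose and 0 fell, where 2.18% of all genes were called, 1.51% rising and 0.666% falling. The median difference of the members was 0.36, beside -0.01 for all genes, with 33 of 36 positive and 14 at an unadjusted p under 0.05, against 10.9% of all genes. The 4 Targretin arrays lay wholly above Control for 2 members, against 2.99% of all genes. Both called genes belong to the 19S side, although the ring genes differed by more in value. The 13 ring genes had a median of 0.57, with 10 at an unadjusted p under 0.05. The 14 genes of the 19S particle had a median of 0.29, with 2 at that threshold. Together the 19S genes averaged 0.29 ± 0.32 (SD, n = 4) above the Control mean. The difference between these sets was not tested. Psmd9, the chaperone that helps assemble the ATPase ring, read 8.18, 8.12, 7.64 and 7.99 on the Control arrays and 8.73, 8.62, 8.82 and 8.74 on the Targretin arrays. The Targretin arrays lay close together (SD 0.08) and wholly above Control, and the narrow array Targretin 2 was close to the others. Psmd9 rose 1.67-fold with Targretin (log2 difference 0.74 ± 0.15, SE, adjusted p = 0.0096), on leaving out each of the 8 arrays as well, with all 8 kept probe sets higher. With MeUAB30 it read 8.13, 8.50, 8.42 and 8.82, overlapping Control, and was called (0.48, adjusted p = 0.046), a call that was lost without MeUAB30 2, MeUAB30 3, MeUAB30 4, Control 3 or Control 4.

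Psmd2, a large scaffold of the 19S base, read 9.96, 9.90, 9.71 and 9.85 on the Control arrays and 10.35, 10.16, 10.35 and 10.69 on the Targretin arrays. The groups did not overlap, and all 24 kept probe sets were higher, by 0.31 to 0.77. Psmd2 rose 1.45-fold with Targretin (log2 difference 0.53 ± 0.13, SE, adjusted p = 0.034), but of the 8 fits that left out 1 array the call stood only in the one without Targretin 2. Psmb4, a beta ring subunit without protease activity, had the highest difference of any member with Targretin, 0.75 (adjusted p = 0.11), and was not called. Its Targretin values were 10.06, 9.23, 10.14 and 10.42, with Targretin 2 at the level of the Control arrays.

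Targretin 2 was the lowest Targretin array for many members, and the counts moved with it. The 13 ring genes averaged 0.55 ± 0.37 (SD, n = 4) above the Control mean with Targretin, at 0.62, 0.01, 0.70 and 0.86 on arrays 1 to 4, so that 3 of the 4 arrays were above every Control array and Targretin 2 was not. Without Targretin 2 the count of called members was 8, without Control 2 it was 5, and on leaving out any other of the 8 arrays it was 1. Without all 4 narrow arrays it was 7 (4 of 13 ring genes, 2 of 14 in the 19S particle, and Psmd9), where 4.07% of all genes were called, and without UAB30 2 as well it was also 7, where 3.78% were.

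**Figure D4:**
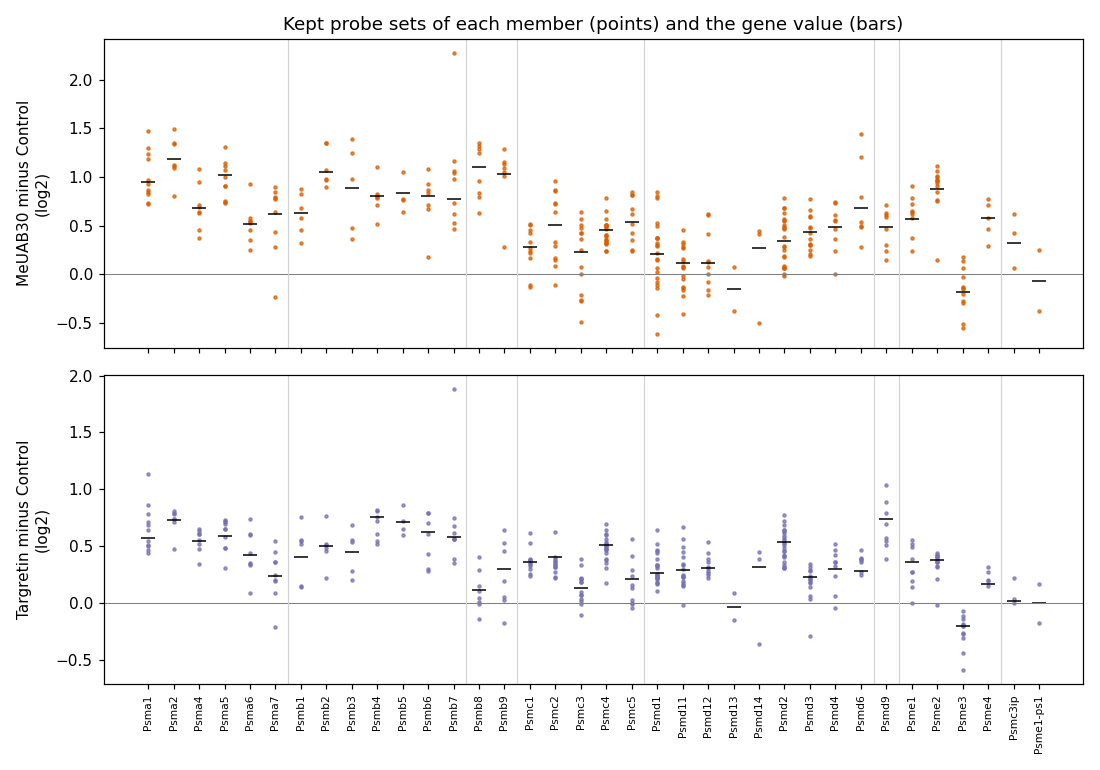
Log2 difference from Control of every kept probe set (points, 339 in all) of the 36 members with MeUAB30 (upper panel) and Targretin (lower panel), with the gene value as a bar. Grey lines separate the roles. All probe sets of Psma1, Psma2, Psma5, Psmb2, Psmb3, Psmb8 and Psmb9 are above 0 with MeUAB30, while the ring gene Psma7 has 1 below. Those of the 19S genes Psmc4, Psmc5, Psmd3 and Psmd6 are also all above 0. Those of the remaining 19S genes, such as Psmd1, Psmd11 and Psmd12, lie on both sides of 0.

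With UAB30 0 of 36 members were called, where 0.0823% of all genes were called. At an unadjusted p under 0.05 there were 11 members, against 7.83% of all genes. The median difference was 0.31, beside 0.05 for all genes, with 34 of 36 positive. The groups did not overlap for 1 member, Psmb3, against 2.58% of all genes that were wholly higher. The highest was Psma2 at 0.90 (adjusted p = 0.26), where UAB30 1 read 10.40 and the other 3 arrays were near the top Control array. The lowest was Psmd13 at -0.23 (adjusted p = 0.85). The ring genes averaged 0.50 ± 0.27 (SD, n = 4) above the Control mean and the 19S genes 0.20 ± 0.20, and UAB30 1 was the highest UAB30 array for both. Without the 4 narrow arrays 0 of 36 were called, where 0.255% of all genes were, and also 0 without UAB30 2 as well. In the fit without Control 2 1 member, Psma2, had an adjusted p of 0.033. Each of these 3 comparisons uses the same 4 Control arrays, and Control 2 was high in most members, so they do not stand independently of each other.

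The UAB30 and MeUAB30 diets held their compounds at equal levels for equal time, so this 1 pair of analogs was compared directly over the 36 members. No member was called (0 of 36, against 1.39% of all genes), and 5 had an unadjusted p under 0.05, against 11.3% of all genes. The differences of MeUAB30 from UAB30 were positive for 32 members, with a median of 0.22. The arrays were wholly higher with MeUAB30 for 1 member, Psma7, against 4.66% of all genes. The largest were those of the immune subunits Psmb8 (0.58, 95% interval 0.17 to 0.996, adjusted p = 0.20) and Psmb9 (0.58, 0.16 to 0.996, adjusted p = 0.21). Psme2 (0.52, 0.03 to 1.01), Psmb2 (0.50, 0.08 to 0.92) and Psma5 (0.44, 0.01 to 0.86) followed, and the lowest was Psme3 at -0.15 (-0.42 to 0.13). With array weights in the fit 3 members were called between the analogs, both immune subunits and 1 beta ring gene, where 1337 of the 12156 genes were called. Without the 4 narrow arrays 0 were, where 2.78% of all genes were, and also 0 without UAB30 2 as well, where Psmb8 and Psmb9 differed by 0.36 and 0.24. Over all members the intervals ran from -0.57 to 1.01, so that the data do not show the analogs to act alike on these genes and do not show a difference at this threshold. Targretin was fed at a lower level than the others, so its values stand beside theirs and no difference between it and an analog was tested.

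In the moderated F test over the 4 diets, which spans both levels, 9 of 36 members were called, where 7.58% of all genes were. They were Psma1, Psma2, Psma5, Psmb2, Psmb3, Psmb6, Psmb8, Psmb9 and Psmd9, with the smallest adjusted p for Psmb8 (0.0048). The count ran from 3 (without MeUAB30 3, and also without Control 4) to 17 (without Targretin 2), and was 4 without Control 1 and 5 without MeUAB30 4.

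Genes that work with the proteasome but are no subunits under these symbols were measured for 35 of 57 listed. With MeUAB30 2 rose and 1 fell, a share of 8.57% beside the 9.89% of all genes called. With UAB30 and with Targretin 0 were called, with 3 and 5 at an unadjusted p under 0.05, beside 7.83% and 10.9% of all genes. The ubiquitin receptor Adrm1, which docks on Psmd1 in the 19S base, rose (log2 difference 0.54, adjusted p = 0.024), as did Bag6, a chaperone of mislocalised proteins (0.40, adjusted p = 0.049). Edem1, which hands misfolded glycoproteins to the degradation pathway of the endoplasmic reticulum, fell by 0.63 (adjusted p = 0.010). Sem1, the smallest 19S subunit, differed by 1.07 on 3 kept probe sets (adjusted p = 0.062), and the stress regulator Nfe2l2 by -0.09 (adjusted p = 0.85). Nfe2l1 is not analysed here. The median of the list was 0.12 with MeUAB30, 0.11 with UAB30 and 0.10 with Targretin. Of 23 listed cytosolic chaperones 18 were measured, with medians of 0.15 and -0.13 with MeUAB30 and Targretin, and 1 of them, the small heat shock protein Hspb1, rose with MeUAB30 (0.89, adjusted p = 0.0025) and with Targretin (0.69, adjusted p = 0.033). That is 5.56% of the list, beside 9.89% of all genes with MeUAB30 and 2.18% with Targretin.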

How the data were processed

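Liver RNA was measured on exon arrays, 1 sample per array, in 4 groups of 4. The deposited values were linear intensities for 887828 probe sets, made by the authors, and how they summarised, background-corrected and normalized the probes is not stated in the labels or headers. The submitters' processing notes name the build rn4. No column belonged to another sample (0). The number of arrays limits the precision.

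Groups came from the array titles. Intensities were transformed to log2(intensity + 1), which understates the change of dim genes. Probe sets with 1 symbol (177688) were kept at a mean over 16 arrays at or above the 75th percentile, taken over every probe set, and the 103692 kept were summarised per gene by median polish. Group means over all 16 arrays were fitted by lmFit and eBayes of limma 3.58.1 (R 4.3.3; files read with data.table, version 1.17.8), and p-values were adjusted over 12156 genes with Benjamini-Hochberg. The procedure was tested on simulated data. Adjusted p-values come from this fit except where the text names arrays left out, a covariate or a normalization. Older symbols were updated through RefSeq.

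The members, lists and tests were chosen with earlier results of these data known. Named members were the immune subunits with the catalytic subunits they replace, Psme1, Psme2, the 8 called members of smallest adjusted p and the highest and lowest in each comparison. The remaining members and list genes named in the text were chosen after their values were seen, except called list genes. Psma3 shares its probe sets with another symbol and is not reported. Alternatives varied the normalization, pseudocount, filter, probe set summary, array weights, replicate block, narrow arrays and single arrays.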

Additional observations from a re-analysis of the deposited data

Results flagged for a closer look

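In 8 of 144 sets of 4 arrays (36 members in 4 groups, 5.56%), 1 array stood far from the other 3 by Dixon's criterion. Chance flags about 1 in 20 groups, and the members move together across arrays, so these are not separate events. Targretin 2 was the low array of its group for Psmb1 (8.90, the nearest at 9.71), Psmb5 (9.05, the nearest at 9.95), Psmb8 (8.36, the nearest at 8.99), Psmd6 (7.77, the nearest at 8.72) and Psmd11 (8.59, the nearest at 9.25). Control 2 was the high array of its group for Psma5 (9.15, the nearest at 8.49), Psmb9 (8.22, the nearest at 7.75) and Psme2 (9.48, the nearest at 9.10). Targretin 2 is also 1 of the 4 arrays of narrow range. Its part in these values was not tested beyond leaving it out.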

How the results depend on the processing

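Single members were tallied across settings where the rule named them in a comparison, whether called or not. The tally leaves out the MeUAB30 calls of Psma7, Psmb4 and Psmd9, which stood in 3, 2 and 3 of the 8 fits without 1 array. Within it, direction and call were kept in 770 results, a call was gained in 24 and lost in 25, and 1 result reversed. That one was Psmb8 with Targretin, at -0.0056 with each array's intensity range as a covariate. For MeUAB30 the count of 15 called members became 24 with array weights (22.8% of all genes called), 24 without the 4 narrow arrays (20.1%), 23 with that covariate (24.9%), of which 22 were higher and Psme3 lower, and 8 to 20 on leaving out 1 array. For Targretin the count of 2 became 1 with the mean of the probe sets, 16 with array weights (6.26% of all genes), 7 without the 4 narrow arrays (4.07%), 8 with the covariate (10.6%), of which 7 were higher and Psme3 lower, 0 with only the groups compared, and 1 to 8 on leaving out 1 array. For the F test the count of 9 became 21 with array weights (24.5% of all genes), 15 without the narrow arrays (15.6%), 17 with the covariate (27.0%), and 3 to 17 on leaving out 1 array. Without Targretin 2 and Control 3, a setting chosen after seeing the data, Targretin gave 5 and the F test 14. Without the narrow arrays and UAB30 2, also chosen after seeing the data, MeUAB30 gave 26, Targretin 7 and the F test 17 (14.4% of all genes). Between the analogs array weights gave 3 in place of 0 (1337 of 12156 genes), and leaving out 1 array 0. With UAB30 leaving out 1 array gave 0 to 1. The cause of these changes was not tested.

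Of 24 pairs of arrays with the same replicate number, 10 correlated above 0.1 in their deviations from the group means, over a range from -0.50 to 0.57. Their median was -0.0030, beside 0.06 for pairs of unlike number. The pairs of number 4 were all positive, from 0.18 to 0.32. Narrow arrays also correlated across unlike numbers, as Control 3 did with Targretin 2 (0.67). These values therefore cannot decide whether the replicate numbers pair the arrays. With the replicate block the counts were 14 for MeUAB30, 1 for Targretin, 7 for the F test and 0 for both UAB30 against Control and the analogs.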

Other observations

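The 32 proteasome genes without the immune subunits, Psmc3ip and Psme1-ps1 moved together within groups. Between pairs of them, the correlation of the deviations from the group means over the 16 arrays had a median of 0.75 and was positive in 98.0% of pairs. The genes share arrays and any array-wide effect, so this is a description and not a test. Psmg3, an assembly chaperone listed in the platform table under an older symbol and so no member, had log2 differences of 0.18 with UAB30, 0.16 with MeUAB30 and 0.17 with Targretin on 1 kept probe set, and was not called.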
